A study of Homo sapiens with 6 samples.

Results

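Of 16888 open regions on chromosomes 1 to 22, 516 (3.06%) were called in 5 ATAC-seq libraries of K562 cells and not in the library of wild-type SLFN11 cells given camptothecin. ATAC-seq marks open chromatin by the places where a transposase can insert sequencing adapters. Overlapping intervals of the 6 deposited peak lists were merged into regions, and a member had an interval in each of the other 5 lists and none in that library. The members were thus chosen by presence and absence in these lists, so their absence is a description and not a finding.

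K562 is an established human leukaemia line of erythroid and myeloid character. The 6 groups of 1 library each were wild-type SLFN11 overexpression with 1000 nM camptothecin (CPT) for 4 h and with DMSO, E669Q SLFN11 overexpression with the same CPT and with DMSO, and a vector control with the same CPT and with DMSO. Whether a line was a clone and how long DMSO was given are not stated in the labels. With 1 library per group nothing here has a replicate check. The 95% intervals below are exact (Clopper-Pearson) for shares and from order statistics for medians, and they cover counting error only.

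CPT traps topoisomerase I on DNA, and replication forks that meet the trapped enzyme stall or break. SLFN11 is a Schlafen-family protein that is recruited to stressed forks, blocks replication there and sensitises cells to topoisomerase inhibitors. The E669Q form carries a change in the ATPase domain of SLFN11. Open regions are mostly promoters and enhancers, and a region enters a peak list when its pileup passes a threshold over local background, which depth as well as accessibility decides.

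The number of members was within the range given by the other shallow libraries. Among the 2611 regions held by the other 5 lists, the wild-type SLFN11 library with CPT lacked 19.8% (18.3 to 21.3). The same count gave 404 regions missing only from vector with CPT, which is 16.2% (14.7 to 17.7) of the regions in the other 5 lists, and 611 or 22.6% (21.0 to 24.2) for vector with DMSO. It gave 144 or 6.43% for E669Q with DMSO, 16 or 0.758% for wild-type SLFN11 with DMSO and 15 or 0.711% for E669Q with CPT. Relative depth, recovered from the deposited fold and p-values and set to 1 in the shallowest library, was 1.09 with CPT and 1.72 with DMSO in the wild-type SLFN11 line. It was 2.22 and 1.33 in the E669Q line, and 1.09 and 1 in the vector line. The 3 shallowest libraries therefore had the 3 largest sets, and the part of depth in the absence of single members was not tested. Among the 5658 regions held by all 3 deeper libraries, 35.7% were missing from wild-type SLFN11 with CPT, 35.98% from vector with CPT and 41.0% from vector with DMSO.

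**Figure D1:**
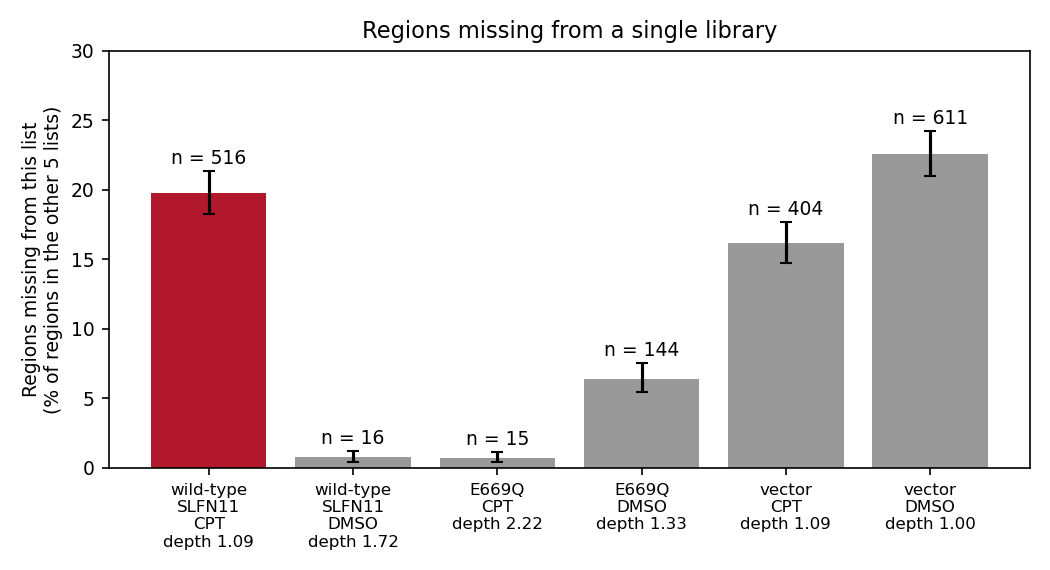
Bars give the share of regions in the other 5 lists that a library lacks, with exact 95% intervals, the number of regions missing only there, and the relative depth of the library. The wild-type SLFN11 library with CPT (19.8%) sits between the vector libraries with CPT (16.2%) and with DMSO (22.6%), all of relative depth 1 to 1.09.

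The order of these shares depended on the threshold. With only intervals of −log10 q of at least 5 in every list, 310 regions were missing only from wild-type SLFN11 with CPT, which is 27.9% of those in the other 5 lists. The shares were then 17.3% for vector with CPT and 23.8% for vector with DMSO, so the wild-type SLFN11 library with CPT had the largest. With lists cut to the same length of 5091 intervals the counts were 204, 185 and 210, or 12.4%, 11.4% and 12.7%. At that length the E669Q libraries lacked 10.8% with CPT and 10.7% with DMSO, and the wild-type SLFN11 library with DMSO lacked 6.17%.

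The members were moderate sites in the libraries that held them. The summit pileup is the number of fragments stacked at the highest point of a region. Its median over the 516 members was 14 fragments in wild-type SLFN11 with DMSO (quartiles 11 to 17), 14 in E669Q with CPT (11 to 18), 10 in E669Q with DMSO (8 to 13), 9 in vector with CPT (7 to 11) and 9 in vector with DMSO (7 to 10). The highest values were 55, 93, 46, 37 and 29 fragments in the same order, all at a single region on chromosome 16 described below. Within each list the median member was stronger by −log10 p than 70.6% of intervals in wild-type SLFN11 with DMSO, 68.3% in E669Q with CPT and 59.7% in E669Q with DMSO. In the vector lists it stood near the middle, above 51.9% with CPT and 52.8% with DMSO.

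Divided by relative depth, the medians of the members were 8.13 fragments in wild-type SLFN11 with DMSO, 6.31 in E669Q with CPT, 7.49 in E669Q with DMSO, 8.27 in vector with CPT and 9 in vector with DMSO. The 2095 regions in all 6 lists had 11.6, 9.01, 10.5, 10.1 and 11 fragments in these libraries, and 10.1 in wild-type SLFN11 with CPT. The members were thus below the regions of all 6 lists in each of the 5 libraries. They were also smaller, with a median merged width of 541 bp (range 187 to 1538) against 633 bp. The regions missing only from vector with CPT were of the same kind, with a median width of 529 bp and 8.13 fragments in wild-type SLFN11 with DMSO. Those regions had 8.25 fragments in wild-type SLFN11 with CPT, the library that had no interval at the members.

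**Figure D2:**
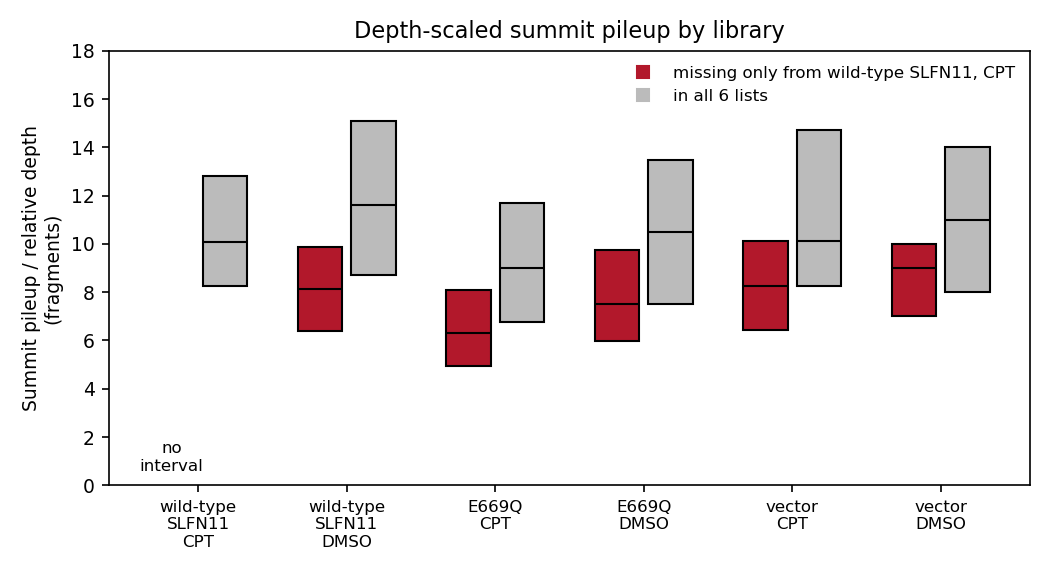
Boxes give the median and quartiles of summit pileup divided by relative depth (fragments) for the members and for the 2095 regions in all 6 lists, in each library. The medians of the members (6.31 to 9) lie below those of the regions in all 6 lists (9.01 to 11.6) in each of the 5 libraries that hold both.

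The −log10 q-values of the authors' peak calls ranged widely among members. The median was 8.27 in wild-type SLFN11 with DMSO, 7.93 in E669Q with CPT, 5.96 in E669Q with DMSO, 5.25 in vector with CPT and 5.09 in vector with DMSO. Each list ended near a −log10 q of 2, and 154 members came to 3 or less in at least 1 list. Only 97 members reached 5 in all 5 lists. A vector library gave the lowest −log10 q for most members, 189 with CPT and 159 with DMSO. In the regions of all 6 lists the vector medians were also the lowest of these 5 libraries, at 6.81 with CPT and 6.41 with DMSO. Within a member, the highest depth-scaled pileup of the 5 libraries was a median of 1.86 times the lowest, and it was at least 2 times the lowest in 201 members. None of these counts was made over other regions, so they are not shown to be particular to the members.

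The libraries ranked the members only loosely alike. Over the 10 pairs of the 5 libraries, Spearman's rho of summit pileup across members was 0.21 to 0.49, lowest between E669Q with DMSO and vector with CPT and highest between the E669Q libraries. Over the 15 pairs of libraries it was 0.51 to 0.72 for regions in all 6 lists, which span a wider range of pileups. For the regions missing only from vector with CPT it was 0.17 to 0.47, with a median of 0.341 where the members had 0.340, so the loose ranking was shared by both sets. These are correlations across regions, which are not independent replicates.

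An expected pileup was set for each region as the mean depth-scaled pileup of the 5 libraries, times the depth of the missing library. For the members its median was 8.55 fragments (8.39 to 8.77), with quartiles at 7.49 and 10.0 (range 5.16 to 37.4). The background of a region was its lowest local background in each of the same 5 libraries, averaged after depth scaling. At that background, a summit needed a median of 6 fragments to pass the lowest −log10 p of the wild-type SLFN11 list with CPT. Of the 516 members, 510 had an expected pileup at or above their own limit. The same held for 399 of the 404 regions missing only from vector with CPT, and for 576 of the 611 missing only from vector with DMSO. The rule largely fixes these counts, since each of the 5 libraries behind the mean had called the region. In the regions of all 6 lists the observed pileup in wild-type SLFN11 with CPT was a median of 0.944 times the expected value, against 1.00 in vector with CPT and 1.04 in vector with DMSO. This ratio was 0.828 in E669Q with CPT, 0.970 in E669Q with DMSO and 1.11 in wild-type SLFN11 with DMSO.

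The missing share fell with the expected pileup in each of these libraries. Of regions expected below 7 fragments, 50.3% (42.3 to 58.3) were missing from wild-type SLFN11 with CPT and 43.3% (35.3 to 51.7) from vector with CPT. Between 8 and 9 fragments the shares were 36.6% (31.5 to 41.9) and 27.6% (22.96 to 32.7), and between 9 and 10 they were 24.4% (19.8 to 29.5) and 17.8% (13.6 to 22.8). At 12 to 15 fragments they were 6.26% and 5.26%, and at 15 or more 1.41% and 1.58%. Vector with DMSO lacked 47.8%, 31.0%, 23.4%, 5.33% and 3.77% in the same bands. In 6 of the 7 bands the share in wild-type SLFN11 with CPT was above those in both vector libraries, with intervals that overlapped both in every band.

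**Figure D3:**
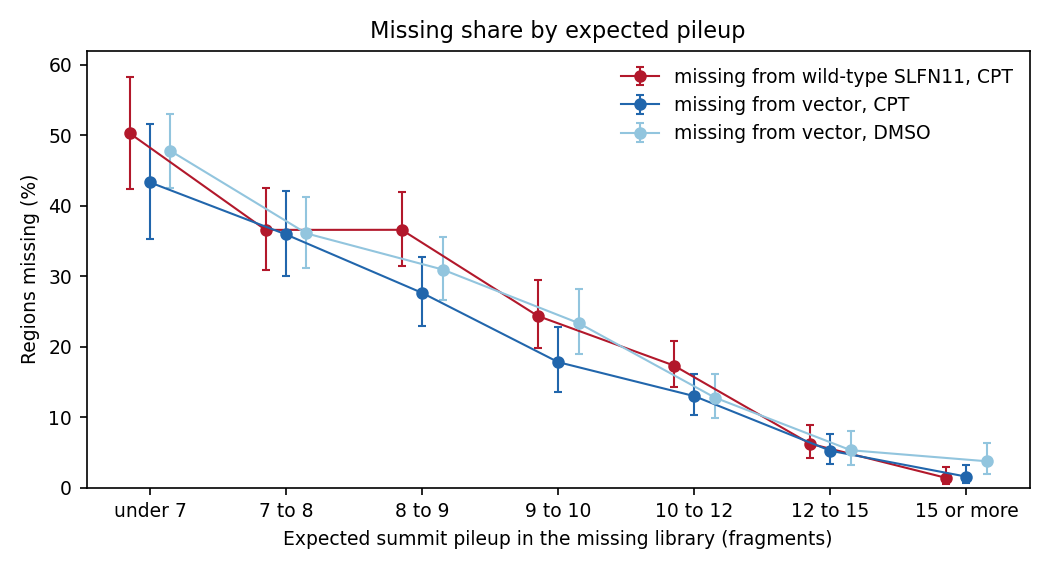
Points give the share of regions in the other 5 lists that a library lacks, with exact 95% intervals, by the pileup expected there (fragments). The curves of the 3 shallow libraries fall together, from 50.3%, 43.3% and 47.8% below 7 fragments to 1.41%, 1.58% and 3.77% at 15 or more.

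Members with a high expected pileup were few. An expected pileup of 12 or more was reached by 36 members, and 15 or more by 7. The 36 lay on 13 chromosomes with a median width of 610.5 bp. The 12 with the highest median depth-scaled pileup are given with pileups in the order wild-type SLFN11 with DMSO, E669Q with CPT, E669Q with DMSO, vector with CPT and vector with DMSO. Coordinates are 1-based on hg19, and no gene is given because no hg19 annotation was used here.

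The first 2 members had a high local background. The region chr16:46391855-46392245 had 55, 93, 46, 37 and 29 fragments. Its authors' fold over background was 3.10 to 4.02, and its recovered local background was 15.8, 29.4, 11.6, 8.45 and 7.52 fragments. A CPT interval of the wild-type SLFN11 library lay 264 bases away. The region chr8:43822397-43822583, the narrowest member at 187 bp, had 33, 46, 26, 15 and 19 fragments, and local backgrounds of 1.94 to 6.80 fragments. The median depth-scaled background of the members was 0.495 to 0.596 fragments over the 5 libraries.

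The next 3 members included the strongest call of any member in wild-type SLFN11 with DMSO. The region chr2:21451223-21451814 had 30, 40, 24, 13 and 18 fragments, with folds of 11.8, 12.7, 10.3, 7.94 and 10.2. The nearest CPT interval of the wild-type SLFN11 library was 600163 bases away. After scaling, 4 of its 5 libraries lay close together and vector with CPT was the lowest. The region chr1:222885285-222886387 had 31, 21, 18, 18 and 22 fragments. The region chr6:144384890-144385516 had 34, 26, 13, 18 and 17 fragments, with a fold of 12.8 and a −log10 q of 27.6 in wild-type SLFN11 with DMSO. That was the strongest call. By depth-scaled pileup the regions on chromosomes 1 and 6 were lowest in the E669Q libraries.

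The next regions had median depth-scaled pileups of 13.4 to 14.7 fragments. The region chr5:109024707-109025670 had 30, 25, 13, 16 and 17 fragments, and chr4:169931184-169931796 had 25, 37, 19, 18 and 11. The region chr18:29671831-29672733 had 21, 31, 19, 11 and 17 fragments, and chr9:108210126-108210907 had 23, 35, 17, 15 and 12. These 4 regions lay 73171 to 601774 bases from a CPT interval of the wild-type SLFN11 library. The region chr5:126852976-126853807 had 23, 22, 18, 17 and 13 fragments, with a −log10 q of at least 8.18 in every list that held it.

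A pair of the 12 lay within 300 kb of each other on chromosome 1. The region from 161431677 to 161432231 had 26, 22, 18, 14 and 17 fragments at folds of 3.84 to 6.08. Its local background was also high, at 1.95 to 4.98 fragments. A CPT interval of the wild-type SLFN11 library was 325 bases away from it. The region from 161135881 to 161136482 had 14, 19, 18, 18 and 13 fragments at folds of 6.67 to 10.1. It was lowest in wild-type SLFN11 with DMSO after scaling and highest in vector with CPT.

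**Figure D4:**
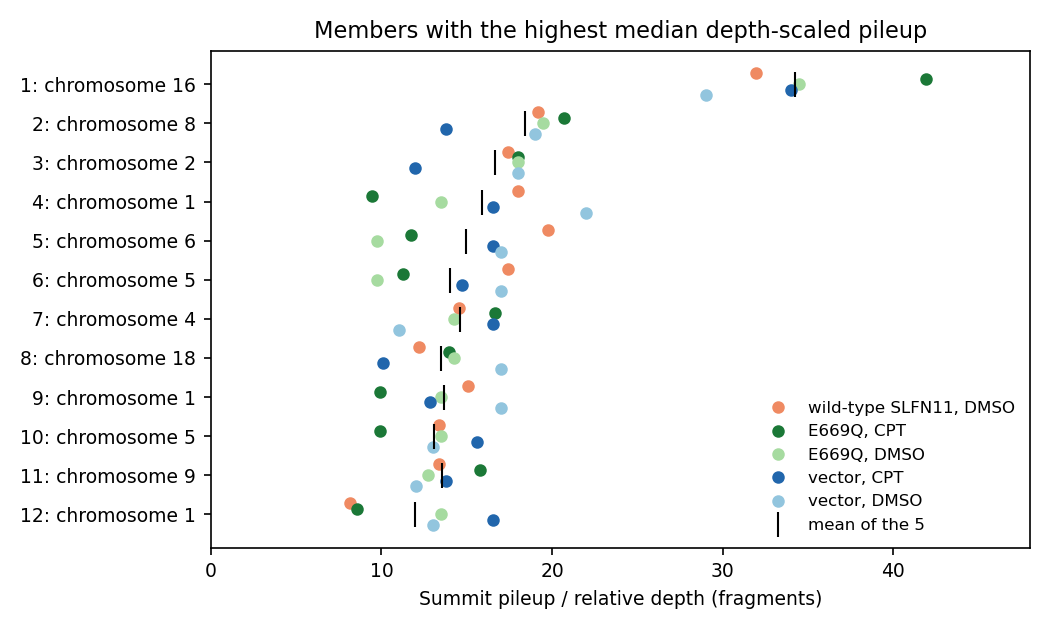
Dots give the summit pileup divided by relative depth (fragments) of the 12 members with the highest median, in each of the 5 libraries that hold them, with the mean as a bar. The region on chromosome 16 stands apart from the other 11, and no library is the highest throughout.

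Ranked by their lowest −log10 q of the 5 lists, the first 3 members were outside the 12 above. The region chr2:146450588-146451009 had −log10 q-values of 11.2, 17.6, 14.99, 10.7 and 13.3, and its nearest CPT interval of the wild-type SLFN11 library was 1109951 bases away. The region chr3:180319493-180320219 had 15.7, 11.1, 9.56, 9.34 and 12.9. The region chr6:80254729-80255010 had 11.6, 19.6, 8.79, 11.9 and 14.6. Their summit pileups were 12 to 23 fragments, so all 3 were called with a wide margin in each of the 5 lists. Next in this rank came the regions on chromosome 2 from 21451223 and on chromosome 5 from 126852976, given above.

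The limits of the rule show on both sides of it. The members closest to a CPT interval of the wild-type SLFN11 library were chr5:78809974-78810528, 14 bases away, and chr7:91875083-91875761, 56 bases away. They were followed by the region on chromosome 16 at 264 bases, by chr3:146262124-146262697 at 289 bases and by the region on chromosome 1 at 325 bases. Just outside the rule, the 5 regions of all 6 lists with the weakest call in that library had a −log10 q of 2.003 there and pileups of 4 to 6 fragments. One of these, on chr13:60737912-60738408, had 5 fragments in wild-type SLFN11 with CPT and 26, 15, 10, 15 and 12 in the other 5 libraries. The weakest member, on chr5:176943810-176944443, was held by vector with CPT at a −log10 q of 2.001.

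Most members were far from any open region of the library that lacked them. Only 8 of the 516 (1.55%) lay within 1 kb of a CPT interval of the wild-type SLFN11 library, and 487 (94.4%) had none within 10 kb. The regions missing only from a vector library were as far from the intervals of that library. Within 1 kb lay 1.24% of those missing from vector with CPT and 1.31% of those missing from vector with DMSO. Within 10 kb the shares were 7.92% and 5.24%, against 5.62% of the members. The median distance was 101830 bases, against 96917 for the regions missing only from vector with CPT and 102445 for those missing only from vector with DMSO. In each of the 5 lists, the span of a member ran from the first to the last base of its intervals. These spans shared a common stretch in 458 members (88.8%), with a median of 129.5 shared bases. In the other members the intervals overlapped as a chain. In 57 members a list had more than 1 interval, and a gap between them counted as part of the span.

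Gene-dense chromosomes held a smaller share of the members than of all regions. Of the members, 48 (9.30%, 6.94 to 12.1) were on the 6 autosomes with the most protein-coding genes per Mb, which are 19, 17, 11, 16, 22 and 20. These chromosomes held 20.6% of all 16888 merged regions. That share was 13.7% (12.3 to 15.3) of the regions in all 6 lists, 23.5% (19.5 to 28.0) of the regions missing only from vector with CPT and 27.8% (24.3 to 31.6) of those missing only from vector with DMSO. On chromosome 19 alone the counts were 6 members (1.16%, 0.428 to 2.51), 40 regions in all 6 lists (1.91%), 26 missing only from vector with CPT (6.44%) and 62 missing only from vector with DMSO (10.1%). Of all merged regions, 5.09% were on chromosome 19. Where vector with CPT or vector with DMSO was not required, the chromosome 19 share of the members was 2.03% or 2.18%. The regions in all 6 lists are not a like background for these shares, since they still require both vector lists. The members let in by dropping vector with CPT had 3.42% on chromosome 19, and those let in by dropping vector with DMSO had 3.5%. Regions let in by the same changes but held by wild-type SLFN11 with CPT are the sets missing only from that vector library, at 6.44% and 10.1%. With a −log10 q of at least 5 in every list the gene-dense share was 7.74% for the set missing only from wild-type SLFN11 with CPT, 12.5% for vector with CPT and 18.4% for vector with DMSO. The rule asks for an interval in both vector lists, and the sets missing from a vector library ask for one in wild-type SLFN11 with CPT, so these sets share only some of their requirements.

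The missing share itself was also compared between the chromosomes. Wild-type SLFN11 with CPT lacked 48 of 336 regions of the other 5 lists on the 6 gene-dense chromosomes (14.3%, 10.7 to 18.5) and 468 of 2275 on the other 16 (20.6%, 18.9 to 22.3). Vector with CPT went the other way, lacking 24.8% (20.6 to 29.4) on the gene-dense chromosomes and 14.6% (13.1 to 16.2) on the others. Vector with DMSO lacked 37.1% (32.7 to 41.7) and 19.6% (17.99 to 21.3). Across the 22 chromosomes the missing share ranked against gene density with rho of −0.42 for wild-type SLFN11 with CPT, 0.53 for vector with CPT and 0.48 for vector with DMSO. Chromosomes are not replicates, and no test was made of this difference between libraries.

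The direction was the same at each expected pileup. Below 8 fragments wild-type SLFN11 with CPT lacked 26.0% (16.4 to 37.6) of regions on the gene-dense chromosomes and 44.8% (39.6 to 50.1) on the others. From 8 to 10 fragments the shares were 24.5% and 31.8%, from 10 to 12 they were 6.25% and 18.9%, and from 12 upwards 1.92% and 3.98%. The intervals of the gene-dense and other chromosomes did not overlap below 8 and from 10 to 12 fragments, and overlapped in the other bands. In vector with CPT the gene-dense share was the higher in 3 of the 4 bands, at 50.6% against 35.7% below 8 fragments, and about equal from 10 to 12 (12.8% and 13.0%).

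Single chromosomes followed this with an exception. Wild-type SLFN11 with CPT had a lower missing share than both vector libraries on 5 of the 6 gene-dense chromosomes. On chromosome 22 it lacked 1 of 31 regions (3.23%), on 20 it lacked 1 of 17 (5.88%), on 16 it lacked 5 of 46 (10.9%), on 17 it lacked 4 of 34 (11.8%) and on 19 it lacked 6 of 46 (13.0%). Chromosome 11, the exception, had 31 of 162 missing (19.1%), against 12.7% in vector with CPT and 19.1% in vector with DMSO. Without chromosome 11 the gene-dense shares were 9.77% in wild-type SLFN11 with CPT, 32.6% in vector with CPT and 46.96% in vector with DMSO. On 15 of the other 16 chromosomes the share was higher in wild-type SLFN11 with CPT than in vector with CPT, and on chromosome 15 it was equal. Against vector with DMSO it was higher on 10 of these 16. On chromosome 1, for example, the share was 18.03% in wild-type SLFN11 with CPT and 20.2% in vector with DMSO. The most members lay on chromosome 2, with 72 of 271 regions missing (26.6%, and 17.1% in vector with CPT). Chromosome 1 had 66 of 366 (18.03% and 14.5%) and chromosome 3 had 46 of 170 (27.1% and 18.95%). Chromosome 13 lacked 15 of 45 (33.3%), against 11.8% in vector with CPT.

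**Figure D5:**
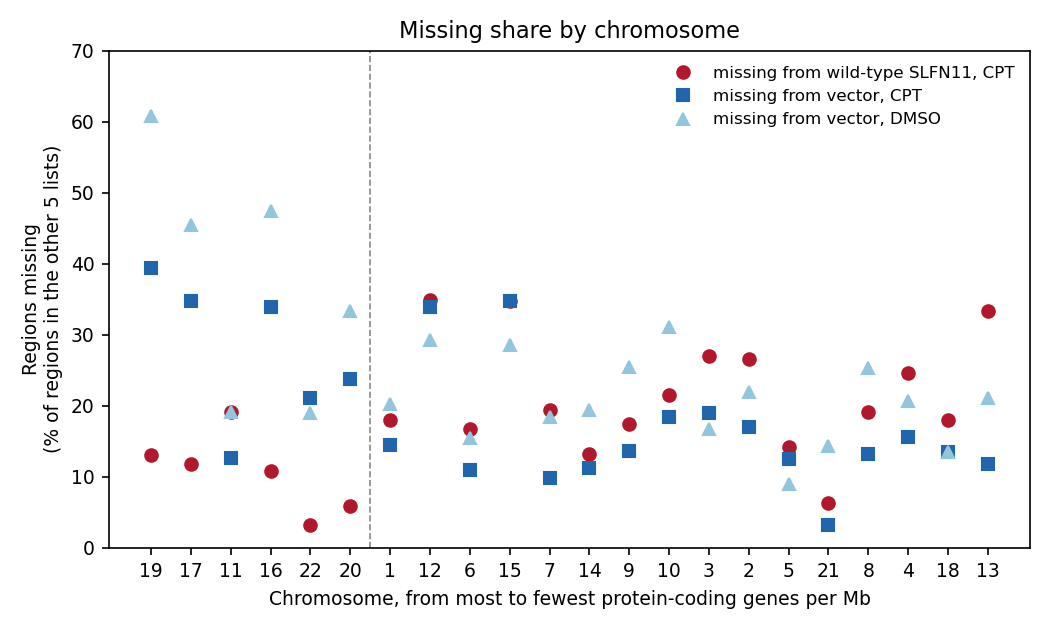
Points give the share of regions in the other 5 lists that a library lacks on each chromosome, ordered by protein-coding genes per Mb, with the 6 gene-dense chromosomes left of the dashed line. On 5 of those 6, all but chromosome 11, the wild-type SLFN11 library with CPT lies below both vector libraries, and of the other 16 it lies above vector with CPT on 15 and above vector with DMSO on 10.

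The members can be set beside their mirror image. Of the 5658 regions held by the 3 deeper libraries, the 516 members were held by both vector libraries and not by wild-type SLFN11 with CPT, and 526 others were held by wild-type SLFN11 with CPT and by neither vector library. Chromosome 19 held 1.16% of the members, and the gene-dense chromosomes held 9.30%. In the mirrored set these shares were 15.8% (12.8 to 19.2) and 37.6% (33.5 to 41.9). The 784 regions held by none of the 3 shallow libraries lay between, at 8.16% and 24.9%. The members and the mirrored set were defined by opposite calls in the same 3 lists. Both vector lists lacked a larger share of regions on the gene-dense chromosomes than on the others, as given above. The contrast therefore rests on the vector lists as well and does not describe wild-type SLFN11 with CPT alone.

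The members were spread along the chromosomes with a few local groups. They fell in 216 of the 283 segments of 10 Mb that held a region of the other 5 lists, and 27 segments held 5 or more. The fullest were chromosome 7 between 90 and 100 Mb, with 9 of 16 regions missing (56.2%, 29.9 to 80.2), and chromosome 1 between 160 and 170 Mb, with 9 of 28 (32.1%, 15.9 to 52.4). Chromosome 4 between 80 and 90 Mb had 7 of 11 missing and chromosome 2 between 30 and 40 Mb had 7 of 16. Over all 2611 regions of the other 5 lists the missing share was 19.8%. These segments were picked for their counts and carry no test, and segments were not counted for other sets of regions.

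At a finer scale, 44 members (8.53%) had another within 100 kb and 61 lay in a span of 1 Mb that held at least 3. Neighbours were not counted for other sets of regions, so this grouping is not shown to be a trait of the members. The fullest spans held 4 members each, on chr3:156272670-156893056, chr5:139487192-140090970 and chr7:91763017-92219808. The 4 members on chromosome 3 had 14 to 22 fragments in wild-type SLFN11 with DMSO, 12 to 20 in E669Q with CPT, 8 to 13 in E669Q with DMSO, 8 to 10 in vector with CPT and 8 to 13 in vector with DMSO. They lay 14235 to 151290 bases from a CPT interval of the wild-type SLFN11 library.

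The E669Q and vector lines held the members with and without CPT, so a ratio exists there. The rule asked each of those lists for a call, and the lists differ in depth. It thus selected on the values compared, and the ratios do not measure a response to CPT apart from that choice. In the E669Q line the median log2 ratio of depth-scaled pileup, CPT over DMSO, was −0.27 (−0.32 to −0.22) over the 516 members. It was −0.25 (−0.26 to −0.23) over all 6518 regions in both E669Q lists and −0.19 over regions in all 6 lists. The sign of the E669Q median hung on the scale, since the authors' fold gave a median log2 ratio of 0.091. At least 2-fold lower pileup with CPT was found in 31 members, or 6.01%, where all regions in both E669Q lists gave 4.88%. At least 2-fold higher pileup was found in 2 members (0.388%), where all regions gave 0.338%.

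In the vector line the median log2 ratio was −0.12 over the members, which is the value for the same whole number of fragments in both libraries, and −0.060 over all 3154 regions in both vector lists. With the authors' fold the median of the members was −0.027. With CPT, 9 members (1.74%) were at least 2-fold lower and 11 (2.13%) at least 2-fold higher, beside 1.65% and 1.24% of all regions in both vector lists. These shares are near those of all regions. In the wild-type SLFN11 line no ratio exists for the members. There the regions in all 6 lists had a median of −0.19 (−0.22 to −0.15), and all 4574 regions in both lists of that line had −0.020.

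The lines were also compared without CPT. The depth-scaled pileup of the members in wild-type SLFN11 with DMSO over E669Q with DMSO had a median log2 ratio of 0.048 (−0.0049 to 0.092), and over vector with DMSO of −0.13 (−0.15 to −0.074). In regions of all 6 lists these medians were 0.15 and 0.078. For the regions missing only from vector with CPT they were 0.048 and −0.019. Each DMSO list had to hold all these regions, and vector with DMSO was the shallowest library. The rule thus selected on the values compared, and the ratios do not measure accessibility apart from that choice.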

How the data were processed

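Each library came as its own deposited peak list. MACS2 2.1.2, Picard 2.9.2, SAMtools 1.8, Bowtie2 2.2.6, Trimmomatic 0.39 and the hg19 build are named in the submitters' processing notes. Their settings, any transposase shift, duplicate handling and read numbers are not given in the sources used here. For each peak the authors deposited a fold enrichment (a ratio over local background), a −log10 p-value, a −log10 q-value, a whole-number score (10 times −log10 q) and the summit position.

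Distinct intervals on chromosomes 1 to 22 were merged where they overlapped by at least 1 base. A region took its highest summit and its lowest local background in each library, which need not come from the same summit. Whole pileups were recovered from fold (pseudocount 1) and −log10 p within 0.001 for 98.7% to 99.3% of entries. Relative depth is the median of the lowest local backgrounds of a library over the spacing at which its backgrounds line up best, assuming MACS2's formulas. Both steps and the merging were checked on simulated data. Gene density used protein-coding counts of RefSeq on GRCh38.p14, without coordinates, over the largest peak end. No test across libraries was made with 1 library per group.

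Named regions were the 12 members with the highest median scaled pileup, the 5 with the highest lowest −log10 q, the 5 nearest to an interval of the missing library, the 5 just outside, and the fullest 1 Mb span. Of 3 equally full spans, the first was described. The members, chromosomes and lists were chosen with earlier results of these data known. Alternatives were stricter thresholds, matched list lengths, other merging and overlap rules, a width limit, other scalings and, chosen after seeing the data, dropping each required list. Scripts ran scipy 1.17.1, pandas 2.3.3 and numpy 2.4.6 under Python 3.11.15, and matplotlib 3.10.9 drew the figures.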

Additional observations from a re-analysis of the deposited data

Results flagged for a closer look

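The numbers of regions missing from a single library moved in opposite directions between the lines. Wild-type SLFN11 had 516 regions missing only from its CPT library and 16 only from its DMSO library. E669Q had 15 and 144, and vector had 404 and 611. With 1 library per group this difference was not tested. Relative depth moved with it: it was 1.09 with CPT and 1.72 with DMSO for wild-type SLFN11, 2.22 and 1.33 for E669Q, and 1.09 and 1 for vector, so the shallower library of each line had the larger set. With lists of matched length the numbers were 204 and 95, 175 and 173, and 185 and 210.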

How the results depend on the processing

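Of 76 values under alternatives, 52 stayed within the 95% interval of the reported value (for the number of members, within 1.5 times of it). The number of members was 310 at −log10 q of at least 5 and 204 at matched list length, and 838 or 916 where vector with CPT or vector with DMSO was not required. Of the 310, 97 overlapped a member of the deposited lists, since the stricter limit also removes weak intervals of the missing library. Of the 204, 188 did. Chromosome X alone held 11. The missing share was 27.9% at −log10 q of at least 5, 22.8% at fold of at least 5 and 12.4% at matched length. It was 23.4%, 25.1% and 25.3% without requiring E669Q with DMSO, vector with CPT or vector with DMSO. The chromosome 19 share of members was 0.323% at −log10 q of at least 5 and 0% at matched length, against 1.16% as reported, and it was 2.03% or 2.18% without requiring vector with CPT or vector with DMSO. The share of members on gene-dense chromosomes stayed at 7.73% to 11.8% under all 12 alternatives, while at −log10 q of at least 5 that of the set missing only from vector with CPT was 12.5%, against 23.5% as reported. The median expected pileup was 11.6 at −log10 q of at least 5, 9.39 at fold of at least 5, 10.2 at matched length, 9.01 without intervals of 150 bases or less and 11.2 without depth scaling, and the mean fold in its place had a median of 6.71. The median log2 ratio of CPT over DMSO in the E669Q line was −0.19 at matched length, and it turned to 0.46 without depth scaling and to 0.091 with the authors' fold. In the vector line it was 0 without depth scaling and −0.027 with the authors' fold. Apart from the scalings and the stricter lists, which change the quantity or the intervals by construction, the cause was not tested. Pileups near 6 fragments limit what can be called in the shallow libraries. No paired analysis was possible because no value here comes from a test and the members have no pileup in wild-type SLFN11 with CPT; ratios of CPT over DMSO within the other lines are given above.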

Other observations

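The rule covers chromosomes 1 to 22. On chromosome X, wild-type SLFN11 with CPT lacked 11 of 54 regions held by the other 5 lists (20.4%, 10.6 to 33.5), vector with CPT lacked 14 of 57 (24.6%, 14.1 to 37.8) and vector with DMSO lacked 22 of 65 (33.8%, 22.6 to 46.6).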
